A study of Mus musculus with 12 samples.

Results

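The metabotropic glutamate receptors are described here by 6 of their genes, Grm2, Grm3, Grm4, Grm5, Grm7 and Grm8, which were taken by symbol from the 15759 entries of the table of normalized counts. All 6 passed the filter on low counts. In SCA1 KI mice, Grm2, Grm3 and Grm4 fell in the cortex and Grm3, Grm5 and Grm7 fell in the cerebellum, whereas no member rose in either region. The largest changes were those of Grm2 in the cortex, which was left at 36.8% of the WT level, and of Grm5 in the cerebellum, which was left at 31.2%.

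Metabotropic glutamate receptors are class C G protein-coupled receptors that tune glutamate synapses more slowly than the ion channel receptors do. Group I, to which Grm5 belongs, sits mostly on the postsynaptic side and couples through Gq to phospholipase C and calcium release, while group II (Grm2 and Grm3) and group III (Grm4, Grm6, Grm7 and Grm8) couple through Gi/o to inhibition of adenylyl cyclase and of transmitter release. In the cerebellum, Grm4 is found at the terminals of granule cells, and in the forebrain Grm3 is expressed by astrocytes as well as neurons.

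SCA1 KI mice (Atxn1 154Q/2Q, C57BL/6J) carry an expanded glutamine repeat in 1 allele of Atxn1, under its own regulatory sequences and therefore in every cell that uses the gene, and were compared with WT littermates at 12 weeks of age. Whole cortex and whole cerebellum gave 12 libraries of poly-adenylated RNA, with 3 libraries per region and genotype in 4 groups. The labels list males, whereas the methods combine males and females. The paper describes the cerebellar libraries as an earlier data set of the same laboratory that was analysed again, so that region and data set cannot be told apart. In these bulk samples, fewer cells of a type and less RNA per cell cannot be told apart either. Since the allele is a knock-in, the level of Atxn1 does not check the labels. It measured 7370 ± 815 normalized counts in WT cortex and 6040 ± 1337 in SCA1 KI cortex (SD, n = 3, limma adjusted p = 0.132), and 3679 ± 54.9 and 3889 ± 221 in the cerebellum (adjusted p = 0.837).

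Between 29520855 and 51311309 reads fell on genes in each library. Most markers of the dissected regions matched the labels. In WT, all 10 markers of cerebellar granule cells were called lower in the cortex than in the cerebellum. Of 10 markers of cortical excitatory neurons, 8 were called higher in the cortex and 1 lower. Neurod2 of that list had 3243 to 4636 normalized counts in the cortical libraries and 4118 to 5931 in the cerebellar ones. Gabra6 of granule cells stood at 0 to 42.1 in the cortical libraries, with WT library D highest. Emx1 of cortical neurons stood at 0 to 5.81 in the cerebellar libraries. Markers of neighbouring tissue nevertheless differed between genotypes. In the cortex, 9 midbrain and hindbrain markers summed to 298 to 361 normalized counts in WT and to 961 to 1688 in SCA1 KI, with 3 of 7 tested markers called higher. Most of the SCA1 KI sum lay in Tal1 (497 to 991 against 115 to 125 in WT) and Pou4f1 (217 to 372 against 2.21 to 6.83). Gata2 and Gata3 overlapped between genotypes. Shox2, Sox14, Hoxb3 and Hoxa3 were at 0 in all WT libraries. In SCA1 KI, however, Sox14, Hoxb3 and Hoxa3 reached at most 12.6, 4.93 and 0.901. The same list ran the other way in the cerebellum, where it summed to 530 to 1306 in WT and 214 to 303 in SCA1 KI, with 5 of 7 tested markers called lower. Thalamus markers, by contrast, were lower in SCA1 KI cortex, at 1356 to 1764 against 1883 to 2132 in WT cortex. All 6 of their cortical LFCs were below 0 and 1 marker was called lower. Library F of SCA1 KI cortex also stood apart by its olfactory bulb markers, which summed to 10779 against 4670 to 5986 in the other cortical libraries. WT cortex library B stood apart by its striatum markers, at 27031 against 8472 to 15395, and its oligodendrocyte markers, at 135047 against 79162 to 98165. Forebrain interneuron markers summed to 47038 to 50206 in WT and 28817 to 38126 in SCA1 KI cortex, with 2 of 11 called lower, and hippocampus markers to 4717 to 6201 and 2199 to 3541, with 1 of 4 tested called lower and a median LFC of −0.70. No marker of these 2 lists was at 0 in every library of either cortical group. WT cerebellum library 2 had the lowest sum of granule cell markers of the cerebellar libraries. Its oligodendrocyte markers had the highest sum, at 266831 against 178046 and 198047 in WT libraries 4 and 6. In SCA1 KI cerebellum that sum was 152414 to 152494, below every WT library, with a median LFC of −0.47 and 0 of 6 called. Olfactory bulb markers summed to 1979 to 2598 in WT and 822 to 1047 in SCA1 KI cerebellum, with 2 of 5 called lower. The parts of these differences in the results were not tested. The values without libraries F and 2 stand beside the members concerned, and without library B the cortical LFCs were −1.46 for Grm2, −0.89 for Grm3 and −1.08 for Grm4, all 3 still called.

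A first question was where each receptor is expressed. In WT mice, 5 of the 6 members were higher in the cortex and Grm4 was higher in the cerebellum, and all 6 were called (limma, adjusted p under 0.05 and absolute log2 fold change, LFC, over 0.25), where 61.7% of all tested genes were called in either direction. Grm4 had 15616 ± 2463 normalized counts in WT cerebellum and 1061 ± 147 in WT cortex (SD, n = 3), which is 14.7-fold more in the cerebellum (LFC of cortex against cerebellum −3.88 ± 0.24 SE, adjusted p = 1.25e-08). Grm5 was the most cortical of the 6, with 10834 ± 566 against 1959 ± 690 (LFC 2.52 ± 0.19, adjusted p = 7.67e-08). The cortical excess of the others was 3.19-fold for Grm2, 2.77-fold for Grm3, 2.31-fold for Grm7 and 1.92-fold for Grm8. In SCA1 KI mice, all 6 kept their side (62.4% of tested genes were called), but the ratios moved: the cortical excess of Grm2 was 1.42-fold and that of Grm5 was 14.9-fold. Grm6 was not analysed here.

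Levels can be set against each other between genes only per length, here as normalized counts per kilobase of annotated exon. In WT cortex the order was Grm3 (1393 ± 39.8 per kilobase), Grm5 (1057 ± 55.2), Grm2 (513 ± 41.9), Grm7 (450 ± 3.52), Grm4 (177 ± 24.6) and Grm8 (78.5 ± 8.01), and no neighbours in that order overlapped between libraries. In SCA1 KI cortex the order became Grm5 (862 ± 133), Grm3 (763 ± 69.3), Grm7 (398 ± 32.6), Grm2 (191 ± 37.6), Grm4 (86.3 ± 38.9) and Grm8 (69.2 ± 10.4). There the ranges of Grm5 and Grm3 overlapped, as did those of Grm4 and Grm8. Grm4 led in WT cerebellum at 2613 ± 412 per kilobase, followed by Grm3 (503 ± 40.9), Grm7 (195 ± 14.3), Grm5 (191 ± 67.4), Grm2 (162 ± 24.3) and Grm8 (41.1 ± 7.49), and the ranges overlapped for Grm7 with Grm5 and for Grm5 with Grm2. In SCA1 KI cerebellum Grm5 (57.2 ± 2.61) stood below Grm2 (133 ± 8.52), with no overlap between these 2. Some neighbours exchange places with another measure of length: by coding length Grm5 precedes Grm3 in WT cortex, and by the longest transcript Grm7 precedes Grm2 there.

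**Figure D1:**
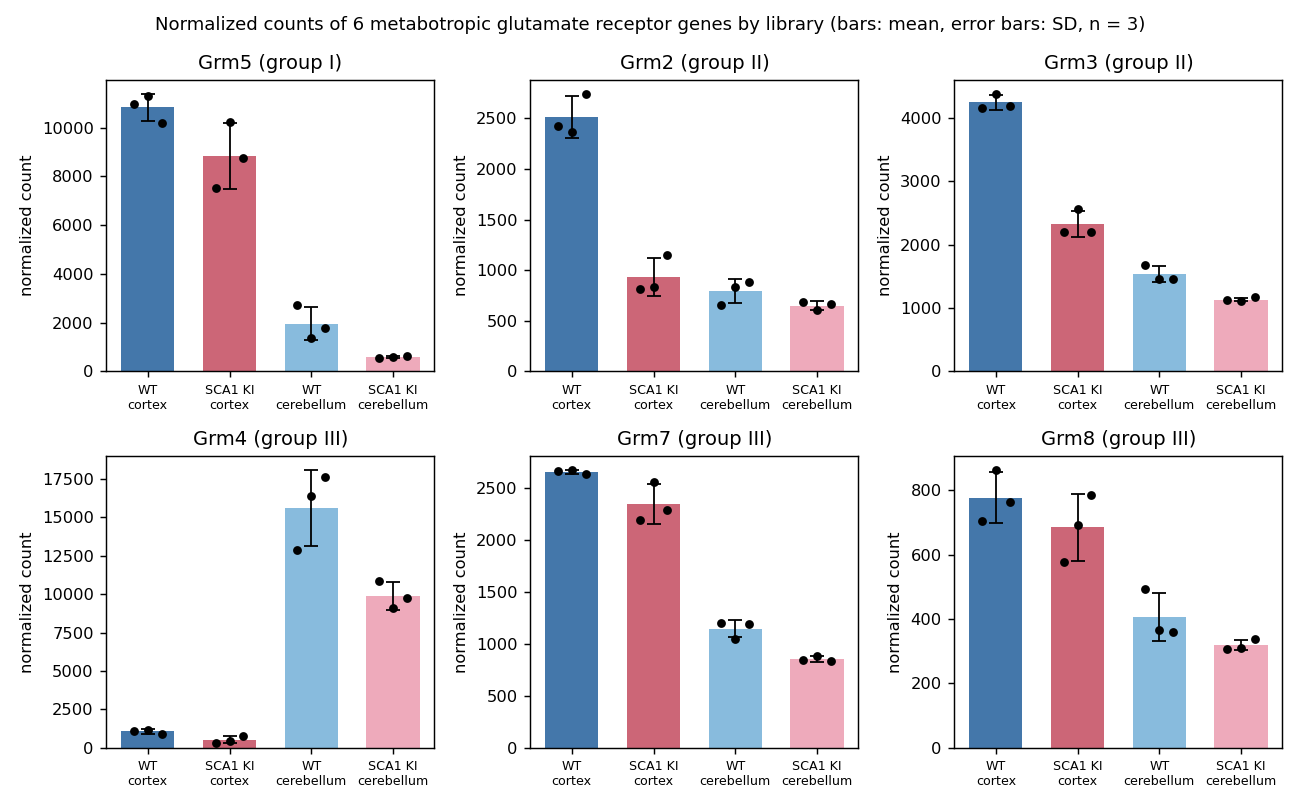
Normalized counts (y axis, linear from 0) of the 6 receptor genes in the 4 groups (x axis). Points are single libraries, bars are means and error bars are SD (n = 3). In the cortex, the SCA1 KI libraries of Grm2, Grm3, Grm4 and Grm7 all lie below the WT libraries, and in the cerebellum this holds for Grm3, Grm4, Grm5, Grm7 and Grm8.

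The main question was how the receptors differ between SCA1 KI and WT in each region. In the cortex, 3 of the 6 members were called lower and none higher, where 10.8% of all tested genes were called lower and 4.82% higher. The SCA1 KI libraries of 4 members lay wholly below the WT libraries, as did those of 18.0% of all tested genes. The median LFC of the 6 was −0.59 against −0.003 over all tested genes. In the cerebellum, again 3 of 6 were called lower and none higher, against 4.44% and 0.917% of tested genes, and 5 members lay wholly below WT, against 17.5%. There the median LFC was −0.43 against −0.005. Only Grm3 was called lower in both regions, as were 1.28% of tested genes, while all 6 LFCs were below 0 in both regions, as for 29.7% of tested genes.

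Group II carried the clearest cortical change. Grm2, a presynaptic receptor that limits glutamate release, had 2429, 2361 and 2745 normalized counts in the WT cortex libraries B, C and D and 817, 838 and 1146 in the SCA1 KI cortex libraries A, E and F. Each WT library thus held more than any SCA1 KI library, and library F was the highest of the SCA1 KI libraries. The LFC was −1.44 ± 0.14 SE (95% interval −1.73 to −1.15, limma adjusted p = 2.48e-05). Without library F, Grm2 stood at −1.60 (adjusted p = 1.68e-05). In the cerebellum, Grm2 had 657, 835 and 883 in the WT libraries 2, 4 and 6 and 682, 603 and 664 in the SCA1 KI libraries 1, 3 and 5. These groups overlapped, with WT library 2 among the SCA1 KI values, and Grm2 was not called there (LFC −0.28 ± 0.14, 95% interval −0.57 to 0.02, adjusted p = 0.325). The exons of Grm2 (chr9:106643095-106656082 on GRCm38, minus strand) share 470 bases, 9.60% of their length, with the antisense gene Gm28111, and since no strand setting of the counting is stated, reads of these genes cannot be told apart in that stretch.

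Grm3, the group II receptor that both neurons and astrocytes use and that also responds to the peptide transmitter N-acetylaspartylglutamate (NAAG), was the member called lower in both regions. In the cortex it measured 4164, 4387 and 4192 normalized counts in WT and 2203, 2570 and 2205 in SCA1 KI, in the library order given above. The WT values lay close together and the highest SCA1 KI value was far below them, with LFC −0.87 ± 0.075 SE (95% interval −1.03 to −0.71, limma adjusted p = 1.43e-05). In the cerebellum it measured 1677, 1465 and 1458 in WT and 1121, 1114 and 1170 in SCA1 KI. The groups were again apart, by less: LFC −0.43 ± 0.075 (95% interval −0.59 to −0.27, adjusted p = 0.00467), or −0.36 (adjusted p = 0.0174) without WT library 2, in which Grm3 was highest.

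Astrocyte markers also had lower values in SCA1 KI. All 10 markers of the list had a cortical LFC below 0 and 6 were called lower. Among these 6 were the glutamate transporters Slc1a2 (LFC −0.81) and Slc1a3 (LFC −0.48) and the astrocyte enzyme Aldh1l1 (LFC −0.57). Gfap (4026 to 5066 in WT and 2540 to 4392 in SCA1 KI cortex) and Gdf10 overlapped between genotypes. The sum of the 10 markers was 300523 to 302757 in WT cortex against 154587 to 217890 in SCA1 KI cortex. Slc1a2 alone held 199946 to 214850 of the cortical sum in WT and 89746 to 147178 in SCA1 KI. In the cerebellum the sum was 237105 to 251664 against 197668 to 201622, and 2 of 10 were called lower. No marker was at 0. Of 10 markers of cortical excitatory neurons, 3 were called lower in the cortex, with sums of 94029 to 96143 in WT and 63895 to 76378 in SCA1 KI. The part of either list in the change of Grm2 or Grm3 was not tested. Grm3 lies at chr5:9485541-9725170 on the minus strand, and no other annotated gene shares its exons.

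The promoters of the group II genes are shown because these members had the 2 cortical changes with the smallest adjusted p values of the 6. RefSeq windows of 250 bases before to 50 bases after the transcription start on GRCm38.p6 were at hand for 4 of the 6 members, in 7 windows. Missing from that set were Grm4 and Grm5. Capitals mark GGGCGG, the core letters bound by Sp1, searched on both strands.
Grm2, chr9:106656060-106656359, minus strand: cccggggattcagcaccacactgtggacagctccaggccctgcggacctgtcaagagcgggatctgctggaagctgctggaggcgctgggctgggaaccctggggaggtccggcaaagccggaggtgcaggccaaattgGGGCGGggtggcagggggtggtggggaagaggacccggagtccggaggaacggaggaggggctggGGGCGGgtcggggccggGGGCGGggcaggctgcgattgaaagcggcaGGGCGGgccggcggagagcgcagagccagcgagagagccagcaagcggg
Grm3, chr5:9725303-9725602, minus strand: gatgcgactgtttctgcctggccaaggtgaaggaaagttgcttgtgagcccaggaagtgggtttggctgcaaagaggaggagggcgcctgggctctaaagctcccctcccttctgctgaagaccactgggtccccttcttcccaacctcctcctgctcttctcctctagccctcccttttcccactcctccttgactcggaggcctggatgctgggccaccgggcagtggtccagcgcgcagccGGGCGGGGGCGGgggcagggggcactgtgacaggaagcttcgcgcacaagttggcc
The Grm2 window held 4 copies, which begin at bases −111, −46, −29 and 2 counted from the start, and the Grm3 window held 2 adjoining copies at −6 and 1. These letters are common: 35.7% of 32851 such windows of all genes held at least 1 copy. G and C made up 72.0% of the Grm2 window and 63.7% of the Grm3 window, against a median of 52.7% over all windows. The octamers bound by capicua, the repressor partner of Atxn1, were searched as TGAATGAA, TGAATGGA, TCAATGAA and TCAATGGA on both strands. They occurred in 0 of the 7 windows of these genes and in 3.84% of all windows. The cyclic AMP response element TGACGTCA likewise occurred in 0 of the 7 windows and in 1.79% of all windows. The absence of letters from these windows says nothing about sites elsewhere.

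The largest relative spread of any member in a group was that of Grm4 in SCA1 KI cortex, with a coefficient of variation of 45.1%. Grm4, a presynaptic receptor of granule cell terminals in the cerebellum, had 1112, 1175 and 895 normalized counts in WT cortex and 333, 436 and 778 in SCA1 KI cortex. The groups did not overlap, but library F lay closest to the lowest WT value while A and E lay far below it. The LFC was −1.12 ± 0.24 SE (95% interval −1.63 to −0.61, limma adjusted p = 0.00545). Library F, with the highest sum of olfactory bulb markers, was also the SCA1 KI library highest in Grm4, as it was in Grm2. Its olfactory bulb markers Cdhr1 (1916 against 275 to 732 in the other cortical libraries) and Eomes (572 against 2.28 to 101) were higher than in the other cortical libraries, while the median LFC of the 5 markers of this list was −0.01 in the cortex. Their part in the result was not tested. Without library F the cortical LFC of Grm4 was −1.46 (adjusted p = 0.000147), and without library A, the lowest, it was −0.85 (adjusted p = 0.0173).

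In the cerebellum, where Grm4 is most abundant, it had 12861, 16384 and 17604 normalized counts in WT libraries 2, 4 and 6 and 10852, 9085 and 9719 in SCA1 KI libraries 1, 3 and 5. All SCA1 KI values lay below all WT values, at a mean of 9885 ± 895 against 15616 ± 2463, yet Grm4 did not pass the test over all 12 libraries (LFC −0.65 ± 0.24, 95% interval −1.16 to −0.14, adjusted p = 0.152). Its spread in that test is shared with the cortical libraries. Fitted on the 6 cerebellar libraries alone it was called (adjusted p = 0.0241), as it was without cortical library F (adjusted p = 0.0181). Granule cell markers had a median LFC of 0.19 there with all 10 above 0, and their sum was 153871 to 218706 in WT and 220469 to 227348 in SCA1 KI cerebellum. WT library 2, which had the lowest granule cell sum, was also the WT library lowest in Grm4. Without that library Grm4 had an LFC of −0.78 and was not called (limma adjusted p = 0.159). Grm4 lies at chr17:27422387-27521403 on the minus strand.

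Grm7, the presynaptic receptor of low glutamate affinity found at the active zone of many synapses, measured 1202, 1050 and 1188 normalized counts in WT cerebellum and 847, 881 and 833 in SCA1 KI cerebellum. No SCA1 KI library reached the lowest WT library, and Grm7 was called lower (LFC −0.42 ± 0.072 SE, 95% interval −0.58 to −0.27, limma adjusted p = 0.00412). In the cortex it had 2658, 2667 and 2628 in WT and 2188, 2557 and 2285 in SCA1 KI. Here too the groups did not overlap, but the difference was small and not called (LFC −0.18 ± 0.072, 95% interval −0.34 to −0.02, adjusted p = 0.108). Grm8, the remaining presynaptic group III receptor, was the least abundant member per kilobase of exon in every group, although its range overlapped that of Grm4 in SCA1 KI cortex and Grm4 stood below it there by the longest transcript or the coding length. It had 706, 863 and 763 in WT cortex and 578, 692 and 785 in SCA1 KI cortex, which overlapped (LFC −0.19 ± 0.14, 95% interval −0.48 to 0.11, adjusted p = 0.391). In the cerebellum it had 492, 366 and 361 in WT and 308, 311 and 337 in SCA1 KI, with WT library 2 well above the rest. The groups were apart but Grm8 was not called (LFC −0.34 ± 0.14, 95% interval −0.63 to −0.04, adjusted p = 0.213), and without WT library 2 its LFC was −0.19 (adjusted p = 0.633).

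Grm7 lies at chr6:110645581-111567230 on the plus strand and Grm8 at chr6:27275119-28135178 on the minus strand. Exons of Grm7 share 130 bases with the antisense gene Gm20387 and those of Grm8 share 96 bases with the microRNA gene Mir592. The most upstream windows of both are shown to set them beside the group II promoters, with the same letters in capitals.
Grm7, chr6:110645262-110645561, plus strand: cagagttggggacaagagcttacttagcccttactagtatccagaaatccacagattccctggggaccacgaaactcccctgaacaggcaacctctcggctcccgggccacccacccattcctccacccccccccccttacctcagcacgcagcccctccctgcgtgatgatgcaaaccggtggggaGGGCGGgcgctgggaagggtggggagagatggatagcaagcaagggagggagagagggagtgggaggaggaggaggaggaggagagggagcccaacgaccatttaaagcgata
Grm8, chr6:28135097-28135396, minus strand: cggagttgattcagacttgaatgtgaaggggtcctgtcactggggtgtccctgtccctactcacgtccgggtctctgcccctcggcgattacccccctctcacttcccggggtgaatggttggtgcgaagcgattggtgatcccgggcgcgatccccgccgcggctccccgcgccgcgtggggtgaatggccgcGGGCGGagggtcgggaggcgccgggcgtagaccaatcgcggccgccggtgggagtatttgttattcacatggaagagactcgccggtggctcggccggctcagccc
Each held 1 copy of GGGCGG, beginning at base −63 in Grm7 and −56 in Grm8, and so the window of Grm2 held the most copies of these 4. G and C made up 61.0% of this Grm7 window and 67.0% of this Grm8 window, so a high share was not particular to group II.

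Grm5, the postsynaptic group I receptor that partners with Homer and Shank scaffolds, carried the largest cerebellar change. It had 2720, 1373 and 1784 normalized counts in WT cerebellum libraries 2, 4 and 6 and 567, 575 and 617 in SCA1 KI libraries 1, 3 and 5. The SCA1 KI libraries lay close together, the WT libraries were spread, and the lowest WT value stood far above any SCA1 KI value. The LFC was −1.68 ± 0.19 SE (95% interval −2.08 to −1.28, limma adjusted p = 0.000192). In the cortex, where it is most abundant, Grm5 had 10968, 11320 and 10212 in WT and 7510, 10223 and 8762 in SCA1 KI, with library E reaching above the lowest WT library. It was not called there (LFC −0.30 ± 0.19, 95% interval −0.71 to 0.10, adjusted p = 0.297). Grm5 lies at chr7:87584168-88134907 on the plus strand, and no other annotated gene shares its exons.

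The cerebellar values of Grm5 ran in the same order among the WT libraries as the markers of midbrain and hindbrain, which summed to 1306, 530 and 766 in WT libraries 2, 4 and 6. In the SCA1 KI libraries that sum was 214 to 303. Of the 9 markers, Pou4f1 had 139, 46.4 and 83.9 in WT and 2.53 to 10.6 in SCA1 KI. Shox2 had 210, 120 and 185 against 0 to 9.68, and Gata3 had 157, 48.9 and 95.5 against 2.53 to 12.6. Tal1 and Sox14 lay apart likewise, but Gata2, Hoxb3, Hoxb4 and Hoxa3 overlapped between genotypes. Hoxb3 had 133, 0 and 0 in WT against 5.9 to 28.1 in SCA1 KI. Hoxb4 (65.7, 2.44 and 1.16 against 0 to 12.6) and Hoxa3 (43.8, 2.44 and 3.49 against 0.687 to 10.6) were high only in WT library 2. Sums of other lists moved the same way. Thalamus markers summed to 5986 to 7123 in WT and 4255 to 4361 in SCA1 KI cerebellum (2 of 6 called lower, among them Tcf7l2 with LFC −3.09). The interneuron peptides Sst (LFC −3.29) and Vip (LFC −5.47) were 2 of 11 forebrain interneuron markers and were both called lower. The sum over the list was 54624 to 55743 in WT and 44966 to 47414 in SCA1 KI, with Dlx5 at 0 in every cerebellar library. Most of that sum lay in Gad1 (26952 to 27445 in WT and 22287 to 23305 in SCA1 KI), Gad2 and Pvalb, none of which was called. LFCs were below 0 for 7 of the 11 markers. The part of these lists in the changes of Grm5, Grm3, Grm7 and Grm8 was not tested. Without WT library 2, which had the highest marker sum and the highest Grm5, the LFC of Grm5 was −1.42 (adjusted p = 6.91e-05), and the remaining WT libraries still carried marker sums above those of SCA1 KI.

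**Figure D2:**
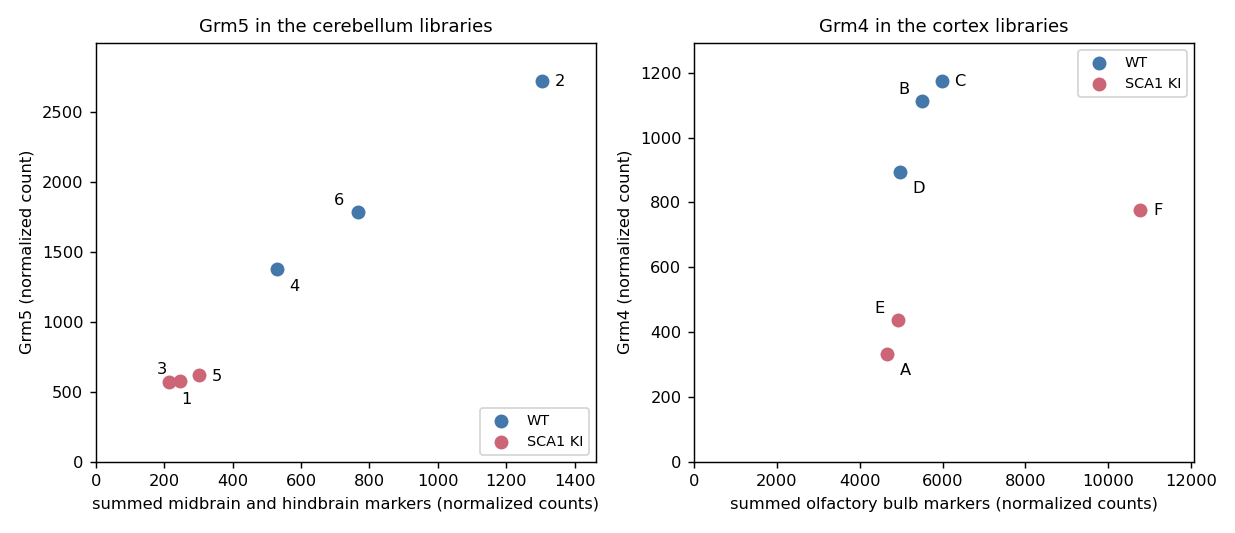
Left, Grm5 against the summed midbrain and hindbrain markers in the 6 cerebellar libraries, and right, Grm4 against the summed olfactory bulb markers in the 6 cortical libraries (both axes in normalized counts, linear from 0, points labelled by library). On the left the WT libraries 2, 4 and 6 lie above the SCA1 KI libraries on both axes, and on the right library F has a marker sum of 10779 and a Grm4 count of 778 that lies between the other SCA1 KI libraries and WT.

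Whether the SCA1 KI effect differed between cortex and cerebellum was tested as an interaction, at an adjusted p under 0.05. It passed for 3 of the 6 members, where 8.15% of all tested genes passed. Grm2 fell more in the cortex, with a cortical minus cerebellar LFC of −1.17 ± 0.19 SE (95% interval −1.58 to −0.75, limma adjusted p = 0.0029). Grm5 fell more in the cerebellum, with a difference of 1.38 ± 0.26 (95% interval 0.81 to 1.94, adjusted p = 0.00654). Grm3 fell in both, more in the cortex, by −0.44 ± 0.11 (95% interval −0.67 to −0.21, adjusted p = 0.022), but this difference was lost when any of 5 single libraries was left out (adjusted p 0.0515 to 0.0601 without WT cortex C, SCA1 KI cortex F, WT cerebellum 6 or SCA1 KI cerebellum 1 or 5). The differences of Grm4 (−0.47, 95% interval −1.19 to 0.25, adjusted p = 0.464), Grm7 (0.24, 0.02 to 0.46, adjusted p = 0.187) and Grm8 (0.15, −0.27 to 0.57, adjusted p = 0.725) did not pass. Without library F, that of Grm4 was −0.81 and passed (adjusted p = 0.0369). The midbrain and hindbrain list also differed in its change between regions, with 5 of 7 tested markers passing, and its part in these differences was not tested.

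**Figure D3:**
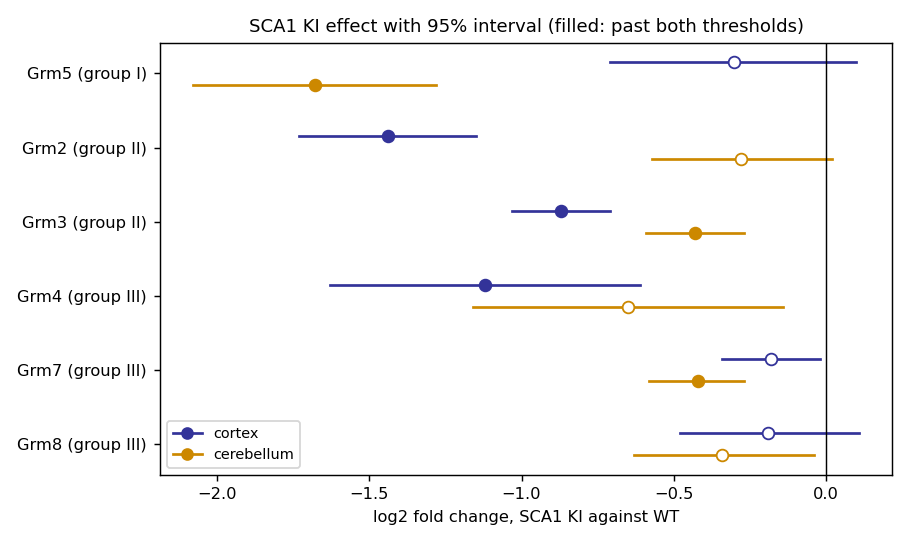
LFC of SCA1 KI against WT (x axis) for the 6 members (y axis), in cortex (blue) and cerebellum (orange), with 95% intervals from limma. Filled points were called. Grm2 and Grm5 show the widest gap between regions, in opposite directions, from −1.44 to −0.28 and from −0.30 to −1.68.

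The mix of receptors shifted in the cortex. As a share of the summed level of the 6 per kilobase, group II made up 51.1% to 53.7% in the WT cortex libraries and 39.2% to 42.2% in SCA1 KI, while Grm5 made up 27.6% to 29.4% and 34.8% to 38.5% and group III made up 18.7% to 19.6% and 22.3% to 24.8%. None of these ranges overlapped. The size of the shares depends on the measure of length: by coding length, Grm5 stood at 3002 per kilobase in WT cortex, Grm3 at 1611 and Grm2 at 960. The summed level itself was 3606 to 3763 in WT and 2108 to 2589 in SCA1 KI cortex, so that the larger shares of Grm5, Grm7 and Grm8 accompanied levels that were not higher. In the cerebellum the sum was 3356 to 4017 in WT and 2246 to 2553 in SCA1 KI. There Grm4 alone made up 64.1% to 73.3% in WT and 67.7% to 71.1% in SCA1 KI, which overlapped, and Grm5 went from 3.58% to 7.91% in WT to 2.17% to 2.53%. With 3 libraries against 3, an exact permutation test of such a share cannot give a two-sided p below 0.1, and none was run.

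**Figure D4:**
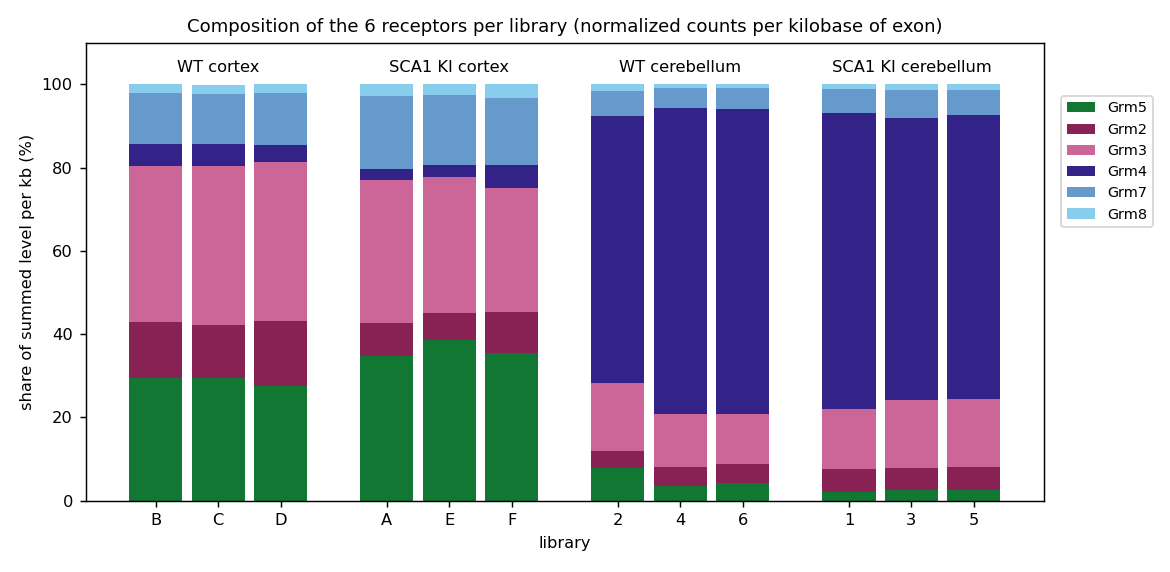
Share of each receptor (y axis, percent) in the summed normalized counts per kilobase of exon of the 6, for each of the 12 libraries (x axis, by the letter or number of the library). Grm3, Grm5 and Grm2 make up most of the cortical bars, Grm4 makes up 64.1% to 73.3% of the cerebellar bars, and the Grm2 and Grm3 segments are smaller in SCA1 KI cortex.

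Genes around the receptors were counted in 6 lists by role, which held 79 tested genes. Of these, 30 were called lower and 2 higher in the cortex and 14 lower and 1 higher in the cerebellum, against the shares of all tested genes given above. At an unadjusted p under 0.05, limma had 8 higher in either region. The calls higher were 2 by edgeR and 3 by DESeq2 in the cortex, and 1 and 2 in the cerebellum. The binding partners, which anchor the receptors, shape their trafficking or meet them across the synapse, had 7 of 16 called lower and 0 higher in the cortex, with a median LFC of −0.29. The scaffolds Shank1 (26021 to 13914 mean normalized counts, LFC −0.93 ± 0.14 SE, limma adjusted p = 0.000681) and Shank3 (LFC −0.68 ± 0.11, adjusted p = 0.00137) fell there, as did Homer1 (11614 to 5682, LFC −0.99 ± 0.19, adjusted p = 0.00295) and the trafficking adaptor Grasp (LFC −0.76 ± 0.14, adjusted p = 0.00296). In the cerebellum, 5 of 16 were called lower and 0 higher, with a median LFC of −0.13. They included Elfn1 and Elfn2, adhesion proteins that bind group III receptors across the synapse. Elfn1 went from a mean of 197 normalized counts to 46.1 (LFC −1.95 ± 0.27, adjusted p = 0.00095) and Elfn2 from 1077 to 602 (LFC −0.81 ± 0.16, adjusted p = 0.0115). Grip2 (LFC −0.86 ± 0.15, adjusted p = 0.00546) and Ncdn, which binds Grm5 (LFC −0.36 ± 0.086, adjusted p = 0.0275), fell as well.

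Of the Gq arm, through which group I receptors act, 8 of 16 genes were called lower and 0 higher in the cortex, with a median LFC of −0.34. Phospholipases Plcb1 (LFC −0.70 ± 0.059, limma adjusted p = 1.43e-05) and Plcb4 (LFC −0.64 ± 0.065, adjusted p = 4.26e-05) fell, together with the endocannabinoid-producing lipase Dagla (LFC −0.86 ± 0.085, adjusted p = 3.28e-05). In the cerebellum 3 of 16 were called lower and 0 higher, with a median LFC of −0.07, among them Plcb3 (LFC −0.90 ± 0.09, adjusted p = 9.18e-05) and Dagla (LFC −0.68 ± 0.085, adjusted p = 0.000444). Of the Gi/o arm of groups II and III, 6 of 23 were called lower and 1 higher in the cortex, with a median LFC of −0.12. Adenylyl cyclases Adcy9 (LFC −0.81 ± 0.066, adjusted p = 1.14e-05) and Adcy1 (LFC −0.89 ± 0.11, adjusted p = 0.000155) and the potassium channel subunits Kcnj6 (LFC −0.66) and Kcnj9 (LFC −0.62) fell. The gene called higher, named here after its value was seen, was the G protein subunit Gng4 (2627 to 5363 mean normalized counts, LFC 1.00 ± 0.27, adjusted p = 0.0201). That call was lost without cortical library B, D or F, with an LFC of 0.77 without F and an adjusted p of up to 0.0763. In the cerebellum the cyclase Adcy2 was the single gene of 23 called (LFC −0.35 ± 0.091, adjusted p = 0.043), a call that was lost in 10 of 12 fits with 1 library left out, with adjusted p values of up to 0.153.

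Genes that switch the receptors off had 6 of 12 called lower and 0 higher in the cortex, with a median LFC of −0.39. The RGS proteins, which speed the shut-off of G proteins, were 4 of these 6: Rgs4 (26698 to 12476 mean normalized counts, LFC −1.09 ± 0.19, limma adjusted p = 0.00197), Rgs8 (LFC −1.04 ± 0.13, adjusted p = 0.000225), Rgs16 (LFC −0.83 ± 0.12, adjusted p = 0.000421) and Rgs7 (LFC −0.51 ± 0.068, adjusted p = 0.000268). In the cerebellum 4 of 12 were called lower and 0 higher, with a median LFC of −0.28, namely Rgs8 (LFC −0.62 ± 0.13, adjusted p = 0.0163), Rgs16 (LFC −0.48 ± 0.12, adjusted p = 0.0306), the receptor kinase Adrbk2 (LFC −0.36 ± 0.066, adjusted p = 0.00632) and Rgs14, which had means of only 16.0 and 5.42 normalized counts. Of 4 enzymes that make or degrade NAAG, to which Grm3 also responds, the synthetase Rimklb was called higher in the cortex (1208 to 2107, LFC 0.80 ± 0.086, adjusted p = 6.11e-05). None of the 4 was called in the cerebellum. Of 8 other class C receptors, Gpr158 (LFC −0.59), Gabbr2 (LFC −0.56) and Gabbr1 (LFC −0.25) were called lower in the cortex. In the cerebellum Gabbr1 was called lower (LFC −0.34) and Gpr158 higher (LFC 0.36). The median LFC over all tested genes was −0.003 in the cortex and −0.005 in the cerebellum. Without library F the 6 lists held 29 genes called lower in the cortex, and without WT library 2 they held 13 in the cerebellum. Of the other named genes, the cerebellar call of Ncdn was lost without library 1, 2, 3, 5 or 6 (adjusted p up to 0.124), that of Gpr158 without the same libraries (up to 0.0959), that of Rgs16 without 1, 3, 4, 5 or 6 (up to 0.128), that of Rgs8 without 1, 5 or 6 (up to 0.0703) and that of Elfn2 without 1 (0.0516). The cortical call of Gabbr1 was lost without library A, B or C, where its LFC reached −0.19. The cortical and cerebellar tissue markers described above differed between the same libraries, and their part in these counts was not tested.

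**Figure D5:**
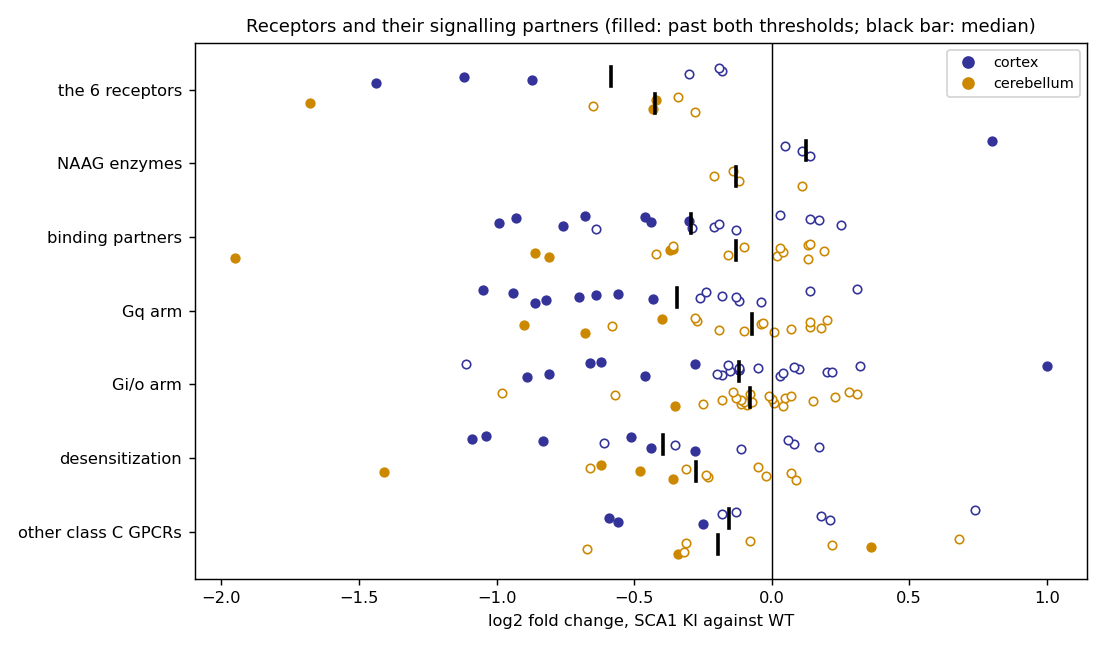
LFC of SCA1 KI against WT (x axis) of each gene of the 6 receptors and the lists around them (y axis), in cortex (blue) and cerebellum (orange). Filled points were called and black bars are medians. The cortical medians lie from −0.12 to −0.59 for every group but NAAG enzymes, where Rimklb stands at 0.80.

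The genes whose pattern over the 12 libraries lay nearest to each member were found by the root-mean-square difference of their centred log2 counts. For Grm2 they were Itpka (0.224), Efhd2 (0.241) and Nrn1 (0.242), of which Itpka had means of 7325 and 2794 normalized counts in WT and SCA1 KI cortex. For Grm3 they were Asap1 (0.113), Cabp1 (0.134) and Sort1 (0.137). The nearest to Grm4 was Rgs8 (0.200), with 59376 and 38506 in WT and SCA1 KI cerebellum and 4044 and 2008 in cortex, followed by Kcng4 and Megf11. Among the nearest to Grm5 were Crtac1 (0.202) and Kcnc2 (0.209), and Kcnc2 had 1541 in WT and 320 in SCA1 KI cerebellum. Camk1d (0.0757), Ajap1 and Rnf157 were nearest to Grm7, and Sema3c (0.0998), 2900097C17Rik and Mboat7 to Grm8. These are descriptions over libraries that differ in region, genotype and tissue markers at once.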

How the data were processed

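RNA with poly(A) tails from 2 brain regions was sequenced in 12 libraries. Per the paper's methods and the submitters' processing notes, the authors used STAR for alignment to mm10, featureCounts for gene counts and DESeq2 for normalization. The deposited table holds these normalized counts, a signal equal to reads divided by the size factor of each library, which keeps zero and compares libraries but not genes of unequal length. All values came out as whole reads within 0.01 reads, and 29520855 to 51311309 reads per library were recovered for edgeR and DESeq2. The columns name region, genotype and a library letter or number, but not the replicate of the labels.

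Values were tested with limma 3.58.1 under R 4.3.3, with a mean-dependent empirical Bayes prior, as log2(normalized count + 1) over all 12 libraries with 4 group means, so an LFC slightly understates the change of low genes. Of 15759 entries, 15369 with a mean of at least 10 were tested and 390 were not. P-values were adjusted by Benjamini-Hochberg over all tested genes, and a gene was called where its absolute LFC exceeded 0.25 with an adjusted p under 0.05, the interaction at the adjusted p alone. The libraries are described as separate samples of each group. Nothing further says how animals, extraction and library preparation were spread over dates, so p-values measure the spread between these samples. The script was tested on simulated data.

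The 6 members, the pathway lists and the marker lists were chosen with earlier results of these data known. Named were the members, Atxn1, up to 4 called genes of each list and region with the smallest p, the 3 genes nearest to each member, and markers, except for some genes that are not reported here. Lengths and coordinates are from GENCODE vM21 (GRCm38), which matched 15009 of 15758 symbols, and levels per kilobase use the union of annotated exons. Promoter windows are from RefSeq. Alternatives were the pseudocount, the filter on low counts, the limit on the LFC, each region on its own, centring of libraries, removal of a trend on length and GC content, edgeR 4.0.16 and DESeq2 1.42.0 on recovered reads, and leaving out each library. Protein sequences were not used here.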

Additional observations from a re-analysis of the deposited data

Results flagged for a closer look

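The SCA1 KI effect differed between cortex and cerebellum in 3 of the 6 members by the interaction term of limma, which 8.15% of all tested genes passed. Grm2 had a cortical minus cerebellar LFC of −1.17 (adjusted p = 0.0029), from LFCs of −1.44 and −0.28. Grm5 had a difference of 1.38 (adjusted p = 0.00654), from LFCs of −0.30 in the cortex and −1.68 in the cerebellum. Grm3 had a difference of −0.44 (adjusted p = 0.022), from LFCs of −0.87 and −0.43, and it was lost when WT cortex library C, SCA1 KI cortex library F, WT cerebellum library 6 or SCA1 KI cerebellum library 1 or 5 was left out (adjusted p 0.0515 to 0.0601). Region and data set cannot be told apart for any of the 3.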

How the results depend on the processing

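In the main fit, 10.8% of all tested genes were called lower in the cortex and 4.44% in the cerebellum. The count of members called lower was 3 in the cortex under every alternative but the limit of 1 on the absolute LFC, which left 2 (Grm2 and Grm4). In the cerebellum it was 3 or 4 except with that limit, which left 1 (Grm5), because the LFCs of Grm3 and Grm7 lie inside it. The fourth was Grm4, called when the region was fitted on its own and without SCA1 KI cortex library F. Leaving out each library in turn gave 3 in the cortex, 3 to 4 in the cerebellum and 2 to 3 for the difference between regions. No member turned its direction under any alternative run. The cerebellar LFC of Grm5 ranged from −1.91 to −1.42 with 1 library left out, and the cortical LFC of Grm4 from −1.46 to −0.85. Over all tested genes, the limit of 1 left 323 of 2402 calls in the cortex, 312 of 824 in the cerebellum, 403 of 1253 for the difference between regions, 3620 of 9482 between regions in WT and 3622 of 9594 in SCA1 KI. Without SCA1 KI cerebellum library 1, 3 or 5, the cerebellar calls were 399, 454 and 512, and without library 1 or 3 the calls of the difference were 783 and 833. A limit of 0.25 on the difference between regions, added after the data were seen, left all 3 members. No paired analysis was possible because the columns carry none of the labels' replicate numbers. Depth did not limit the members, each of which had over 300 normalized counts in every library.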
